A study of Mus musculus with 2 samples.

Results

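The clustered protocadherin genes were examined for open chromatin in the embryonic mouse face. The members were the genes of chromosome 18 in the GENCODE M21 annotation whose symbol starts with Pcdha, Pcdhb or Pcdhg. There were 58 of them, beside 21938 protein-coding genes in all: 14 in the Pcdha cluster, 22 in the Pcdhb cluster and 22 in the Pcdhg cluster. They carry 57 symbols, because the annotation gives the symbol Pcdha11 to 2 gene identifiers, called copy 1 and copy 2 here in chromosomal order. These are separate variable exons with their own start sites, and the labels do not mean a duplicated gene. No member carries the symbol Pcdha10. Of the members, 1 (Pcdhgb8) is annotated as a polymorphic pseudogene. All lie between 200 kb flanks in chr18:36730184-38041873 (mm10), and all are read in the forward direction.

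DNase-seq was performed on embryonic facial prominence, the tissue that forms the face and jaws, collected at embryonic day 14.5 from mice of the strain B6NCrl, with male and female embryos pooled. The 2 biological replicates were separate tissue samples listed under 1 donor record, with no genetic change or treatment and no second group. In DNase-seq, nuclei are treated with the enzyme DNase I, which cuts open chromatin more readily than packed chromatin. The lists held 304489 peaks of 150 bp in replicate 1 and 218221 in replicate 2. Each peak has the authors' score, with a median of 50 in replicate 1 and 37 in replicate 2, and read depth was unknown. Scores were therefore compared only within a list, as percentiles: a percentile of 50 marks a peak in the middle of its replicate's list. Facial mesenchyme and epithelium markers such as Msx1, Dlx5, Twist1, Tfap2a and Trp63 had overlapping promoter peaks in both replicates at 12 of 12 genes, against 67.4% of all protein-coding genes. Neuron markers such as Elavl3, Tubb3 and Isl1 did at 10 of 10, so these promoter calls did not tell the cell types apart.

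Clustered protocadherins are cell adhesion proteins best known from neurons, where each cell makes its own small set of them and uses that set to tell itself from other cells. In the Pcdha and Pcdhg clusters, each variable exon has its own promoter and is spliced to constant exons shared by the whole cluster, whereas Pcdhb genes have no shared constant exons. Most variable exons are alternate isoforms, which are chosen in a largely random way in single cells, and the last ones of the Pcdha and Pcdhg clusters are c-type isoforms, which many neurons make constitutively. The members comprised 31 alternate isoforms, 5 c-type isoforms and the 22 Pcdhb genes.

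Most members had an open promoter, but the peaks there were weak for promoters. Overlapping peaks of both replicates lay within 500 bp of a start site at 46 of 58 members (79.3%), a group called shared promoter peaks below. Over all protein-coding genes the share was 67.4%. Replicate 1 alone had a promoter peak at 48 members, against 70.9% of all genes, and replicate 2 at 50, against 68.7%. With 2 replicates of 1 group and genes that are not replicates, the counts are descriptive and no test applies.

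Where member promoters were open, their peaks mostly ranked low for genes with a shared promoter peak, although Pcdhgc3 ranked above the median of such genes. Among the 46 members, the highest promoter peak had a median score of 36 in replicate 1 and 30.5 in replicate 2. The corresponding medians over all protein-coding genes with a shared promoter peak were 122 and 111. As percentiles, the members' medians were 21.4 and 35.9, and those of all such genes were 96.9 and 96.3. In replicate 1, 23 of the 46 members had their peak in the lowest 25% of the list, where 1.35% of all genes with a shared peak fell. In replicate 2 this held for 17 of 46 (37.0%), against 1.93%. Conversely, 13 members in replicate 1 and 18 in replicate 2 were above the middle of the list, where 96.1% and 94.9% of all such genes stood. In bulk tissue, fewer cells with an open promoter and a less open promoter in each cell cannot be told apart.

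Most member promoters held a single peak, in a narrow hotspot. The promoter window held only 1 peak at 39 of 46 members in replicate 1 (84.8%) and at 37 in replicate 2 (80.4%), against 35.3% and 36.9% of all genes with a shared promoter peak. Hotspots are broader regions of enriched cutting, each listed with the −log10 of a q-value that stops at 100. Shared hotspots were present at the promoters of 47 members, against 68% of all genes. For the 46 members, the hotspot with the highest value in the promoter window had a median width of 207 bp (replicate 1) and 218 bp (replicate 2). The medians over all genes with a shared promoter peak were 901 bp and 884 bp. Its value reached the ceiling at 11 of 46 members in replicate 1 (23.9%) and 14 in replicate 2 (30.4%), against 91.9% and 88.6%. The replicates ordered the members in a broadly like way: Spearman's rho between their scores was 0.76 over the 46 members, given as a description since neighbouring promoters share a library and a locus.

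**Figure D1:**
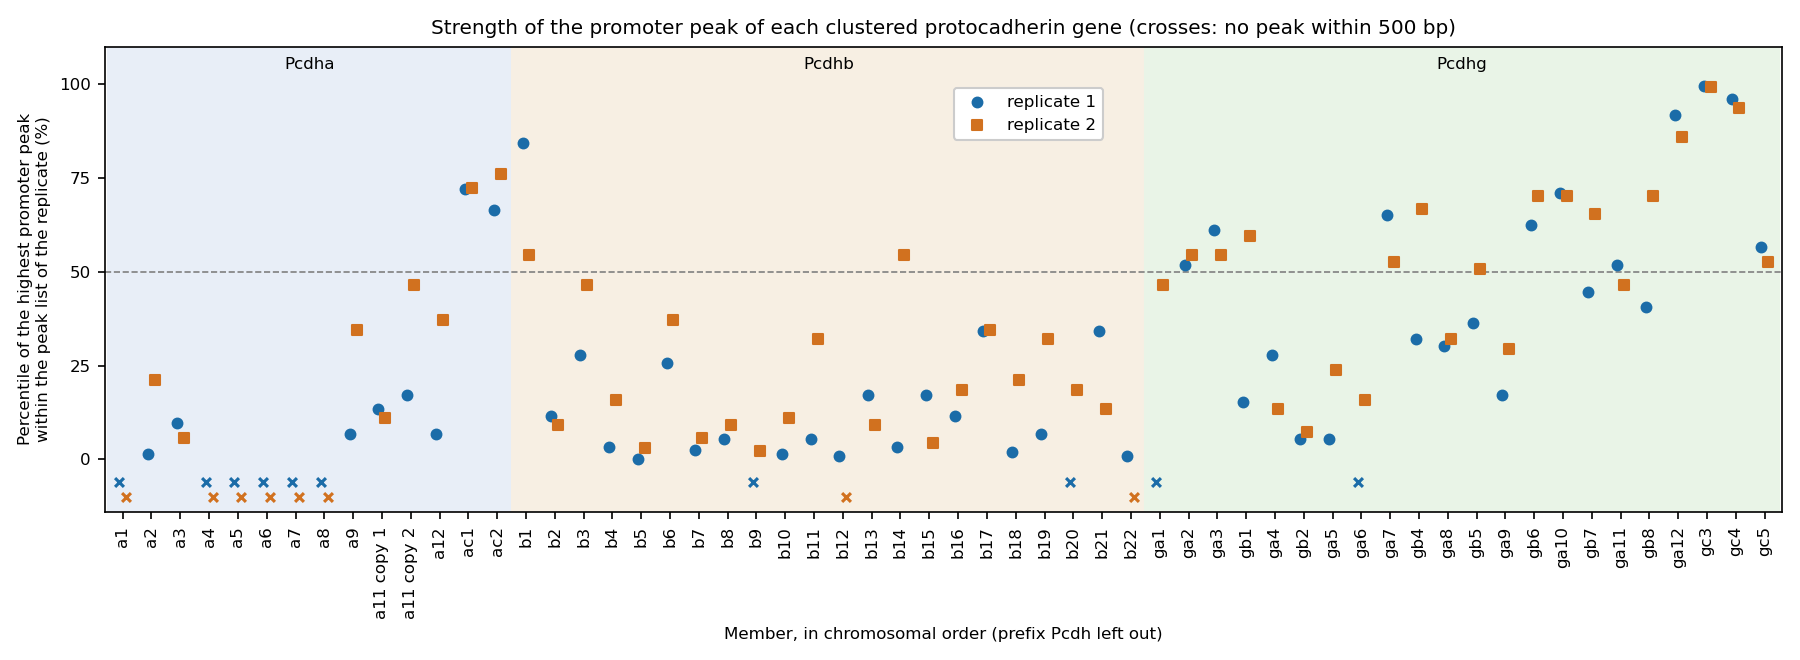
Each of the 58 members is placed in chromosomal order along the horizontal axis, and the vertical axis gives the percentile of its highest promoter peak within the peak list of replicate 1 (circles) or replicate 2 (squares). Crosses mark members with no peak within 500 bp, and the dashed line is the middle of each list. The 5 c-type isoforms stand at or above 52.7, most Pcdhb members lie below the line, and crosses of both replicates occur only for 6 Pcdha alternate isoforms.

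The Pcdha cluster had the fewest open promoters. A shared promoter peak was present at 8 of 14 members (57.1%): both c-type isoforms and 6 of the 12 alternate isoforms. Pcdha2 scored 22 in replicate 1 and 25 in replicate 2, and Pcdha3 scored 30 and 18. Pcdha9 scored 28 and 30, and Pcdha12 scored 28 and 31. The genes labelled Pcdha11 scored 32 and 21 (copy 1, chr18:37005116-37005265 in replicate 1) and 34 and 35 (copy 2, chr18:37010596-37010745 in replicate 1). Copy 2 was the strongest alternate promoter of the cluster in both replicates, and it was still below the middle of both lists, at percentiles of 17.2 and 46.6.

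The 6 Pcdha members with no promoter peak in either replicate were Pcdha1, Pcdha4, Pcdha5, Pcdha6, Pcdha7 and Pcdha8. From Pcdha4 to Pcdha8 they were consecutive in the array. The nearest peak centre lay between 595 bp and 20512 bp from their start sites. Pcdha4 was the nearest case, with a peak 615 bp away in replicate 1 and 595 bp away in replicate 2. That site (chr18:36953196-36953365) scored 21 and 14 and lies within 500 bp of the start of the overlapping gene models Gm38225 and Gm42416. Pcdha4 also had a hotspot within 500 bp in both replicates, with a −log10 q-value of 2.37 in replicate 1 and 1.80 in replicate 2. A promoter missing from a list was not called open, which does not show that it was closed.

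Near-identical sequence could bear on these counts, which was not tested. The windows compared here reached 500 bp either side of the most upstream start site of each member. A median of 19.8% of the Pcdha positions began a 36-base stretch that recurs elsewhere in the region, with a highest value of 27.2%. The medians were 0% for Pcdhb and 0.831% for Pcdhg, but the highest values were 14.6% (Pcdhb12) and 26.6% (Pcdhgb4). Pcdhgb5 (20.5%), Pcdhgb6 (16.8%) and Pcdhgb7 (16.0%) were also in the range of the Pcdha alternate isoforms. How the authors treated reads that match several places is not given in the sources used here, so the values of the Pcdha alternate isoforms, of these Pcdhgb members and of some Pcdhb members are uncertain where copies share reads. The share was 7.45% to 26.2% at the 6 Pcdha alternate isoforms with no peak and 13.3% to 27.2% at the 6 with one.

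The Pcdhb cluster had many open promoters, nearly all weak. A shared promoter peak was present at 18 of 22 members (81.8%), with a median percentile of 9.05 in replicate 1 and 17.2 in replicate 2. Pcdhb1, the first gene of the array, had the highest mean percentile, with a score of 81 in replicate 1 and 39 in replicate 2 (percentiles 84.4 and 54.6). It was followed by Pcdhb3, with scores of 39 and 35, and Pcdhb17, with scores of 42 and 30. Pcdhb1 was thus above the middle of both lists, whereas Pcdhb3 and Pcdhb17 were below it in both. The other Pcdhb members ranged down to Pcdhb5, with scores of 15 and 16, close to the lowest in the lists at percentiles of 0.162 and 3.10. Along the array, the order of the genes and their percentiles were nearly unrelated, with a Spearman's rho of 0.02 in replicate 1 and 0.01 in replicate 2 over 18 members.

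The remaining 4 Pcdhb members had a promoter peak in 1 replicate only. Pcdhb12 and Pcdhb22 had one in replicate 1, each with a score of 20, and none in replicate 2. These were the only 2 members of that kind, which made up 3.17% of all genes. Pcdhb9 and Pcdhb20 had one in replicate 2, with scores of 15 and 24, and none in replicate 1. All 4 peaks were in the lowest 25% of their list.

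The Pcdhg cluster had the most open promoters and the strongest ones. A shared promoter peak was present at 20 of 22 members (90.9%), including 10 of the 12 Pcdhga genes, 7 of the 7 Pcdhgb genes and all 3 c-type isoforms. The median percentile of the 17 alternate isoforms with a shared peak was 40.5 in replicate 1 and 54.6 in replicate 2, compared with 8.21 and 27.9 for the 6 Pcdha alternate isoforms. The missing members were Pcdhga1, with a score of 35 in replicate 2, and Pcdhga6, with a score of 23 in replicate 2. Neither had a promoter peak in replicate 1. With Pcdhb9 and Pcdhb20, they were the 4 members with a peak in replicate 2 alone, a pattern found at 0.921% of all genes.

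Among the Pcdhg alternate isoforms, Pcdhga12, the last of the array, had the highest mean percentile. Its peak scored 97 in replicate 1 and 71 in replicate 2 (percentiles 91.8 and 86.0) and was centred 350 bp and 330 bp downstream of the annotated start. Pcdhga10 scored 65 and 50, and Pcdhgb6, whose promoter shares sequence with other copies, scored 58 and 50. The lowest mean percentile was that of Pcdhgb2, with scores of 27 and 19. Percentiles tended to be higher towards the constant exons, with a Spearman's rho between position and percentile of 0.41 in replicate 1 and 0.48 in replicate 2 over 17 members. The order over position was noticed after the values had been seen.

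All 5 c-type isoforms had a shared promoter peak above the middle of both lists, and the 2 strongest promoters of all members were among them. Pcdhgc3 scored 144 in replicate 1 and 133 in replicate 2 (percentiles 99.7 and 99.4), with the same peak, chr18:37806256-37806405, in both lists. Pcdhgc4 scored 115 and 95 (percentiles 96.0 and 93.8), again with 1 peak position, chr18:37815296-37815445, in both. These levels lie near the medians of all open promoters, 96.9 and 96.3.

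The other c-type isoforms were of middle rank. Pcdhac1 scored 66 in replicate 1 and 52 in replicate 2 (percentiles 72.2 and 72.3). Pcdhac2 scored 61 and 56 (66.5 and 76.0), with its highest peak centred 347 bp downstream of the start in replicate 1 and 147 bp downstream in replicate 2. Its overlapping peaks (chr18:37143576-37143825) scored 60 and 56. Pcdhgc5, the variable exon nearest to the Pcdhg constant exons, was the weakest of the 5, with scores of 54 and 38 (56.7 and 52.7) and a hotspot −log10 q-value of 2.41 and 1.69. The median c-type hotspot was 1278 bp wide in replicate 1 and 722 bp wide in replicate 2, wider than the medians of 207 bp and 218 bp over all members. With 5 c-type isoforms in 1 tissue, no test of isoform class was possible.

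The difference in strength decided what a stricter threshold left. When only peaks at or above the median score of their list were used, 12 of 58 members kept a shared promoter peak, whereas the share of all protein-coding genes was 63.2%, near the 67.4% with all peaks. The 12 were the 5 c-type isoforms, Pcdhb1 and the 6 Pcdhg alternate isoforms Pcdhga2, Pcdhga3, Pcdhga7, Pcdhgb6, Pcdhga10 and Pcdhga12. Of the 53 members that are not c-type, 7 remained. The Pcdha cluster kept 2 members and the Pcdhb cluster 1, so the order of the clusters by share of open promoters was not the same under both thresholds.

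**Figure D2:**
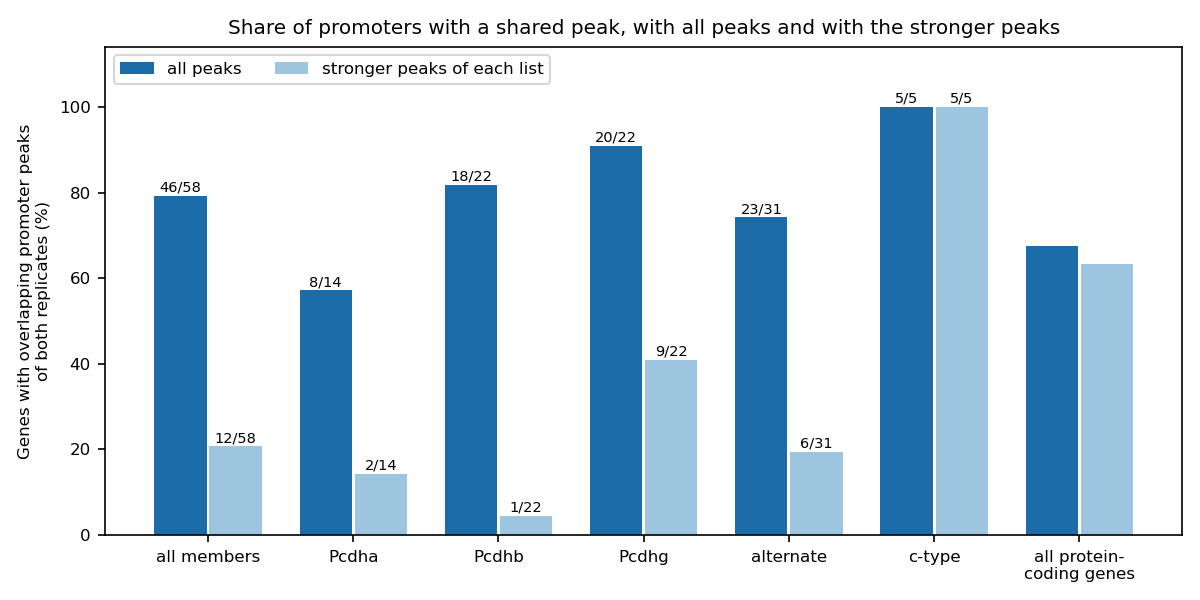
Bars give the percentage of genes with overlapping promoter peaks of both replicates, from 0, for all members, each cluster, the alternate and c-type isoforms and all protein-coding genes. Dark bars use all peaks and light bars only peaks at or above the median score of their list. Numbers above the bars are genes with a shared peak over genes in the group: the c-type isoforms stay at 5 of 5, while Pcdhb goes from 18 of 22 to 1 of 22.

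Member peaks sat close to the start of transcription. The centre of the highest promoter peak had a median position 29 bp upstream of the nearest start site in replicate 1 and 30.5 bp upstream in replicate 2. It lay within 100 bp at 40 of 46 members in replicate 1 (87.0%) and 37 in replicate 2 (80.4%), against 67.2% and 68.8% of all genes with a shared promoter peak. The exceptions beyond 300 bp were Pcdhga12 in both replicates and Pcdhac2 in replicate 1.

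Promoters of clustered protocadherins are known for a conserved element that contains the letters CGCT, and for binding of CTCF, a protein that anchors chromatin loops together with cohesin. Windows of 300 bases were searched, from 250 bases before to 50 after the most upstream start site. CGCT was found on either strand in 56 of 58 member windows (96.6%), compared with 68.2% of all protein-coding windows of that length in GRCm38. The exceptions were Pcdhb22 and Pcdhga12, whose highest promoter peaks lay downstream of this window. Those peaks did hold CGCT in the direction of transcription, in replicate 1 for Pcdhb22 and in both replicates for Pcdhga12. Within the windows, CGCT was found in the direction of transcription in 51 members (87.9%), against 52.1% of all genes. On the opposite strand it was found in 28 (48.3%), against 53.1%. Over all windows, the share was thus above that of other genes on the forward strand and not on the opposite strand, before base composition was taken into account.

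Base composition differed as well, which matters for any short motif. The median GC content of the member windows was 39.7%, compared with 55.7% over all genes. Among windows of at most 45% GC, forward CGCT was found in 42 of 47 members (89.4%) and in 15.1% of 4144 genes. On the opposite strand it was found in 20 of these 47 members (42.6%) and in 14.4% of the genes. CpG content, which matters for a motif that contains CG, was not matched. Within this GC limit the members were above other genes on both strands, and more of them held the forward match. Between 150 bp and 20 bp upstream of the start it was found in 46 of 58 members (79.3%) and in 31.8% of all genes. These limits of composition and position were set after the values had been seen.

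The letters beside the motif differed between the clusters, and the motif was present at members with and without a peak. The longer form GGCGCT, which contains CGCT, was found in the forward direction in 18 of 22 Pcdhb members (81.8%) and in 10.8% of all genes. In the other clusters it was found in 1 Pcdha member (Pcdhac1) and 1 Pcdhg member (Pcdhgc3), both c-type. Among the 5 c-type isoforms, 3 held forward CGCT, against 48 of the 53 other members. Forward CGCT was also found in 11 of the 12 members without a shared promoter peak (91.7%), among them all 6 Pcdha isoforms with no peak. A match describes the sequence and is not by itself a bound site.

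Where a member promoter was open, the peak itself usually covered the motif. Forward CGCT lay inside the highest promoter peak at 38 of 46 members in replicate 1 (82.6%) and 40 in replicate 2 (87.0%), against 55.5% and 56.3% of all genes with a shared promoter peak. The peak centre was downstream of the nearest match at 35 of those 38 members and 34 of those 40. Over all 38 and all 40, the median distance was 25.5 bp and 17.0 bp downstream of the match. Over all genes the median was -2.0 bp in both replicates, slightly upstream. In the members the match thus tended to sit on the upstream side of the peak.

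**Figure D3:**
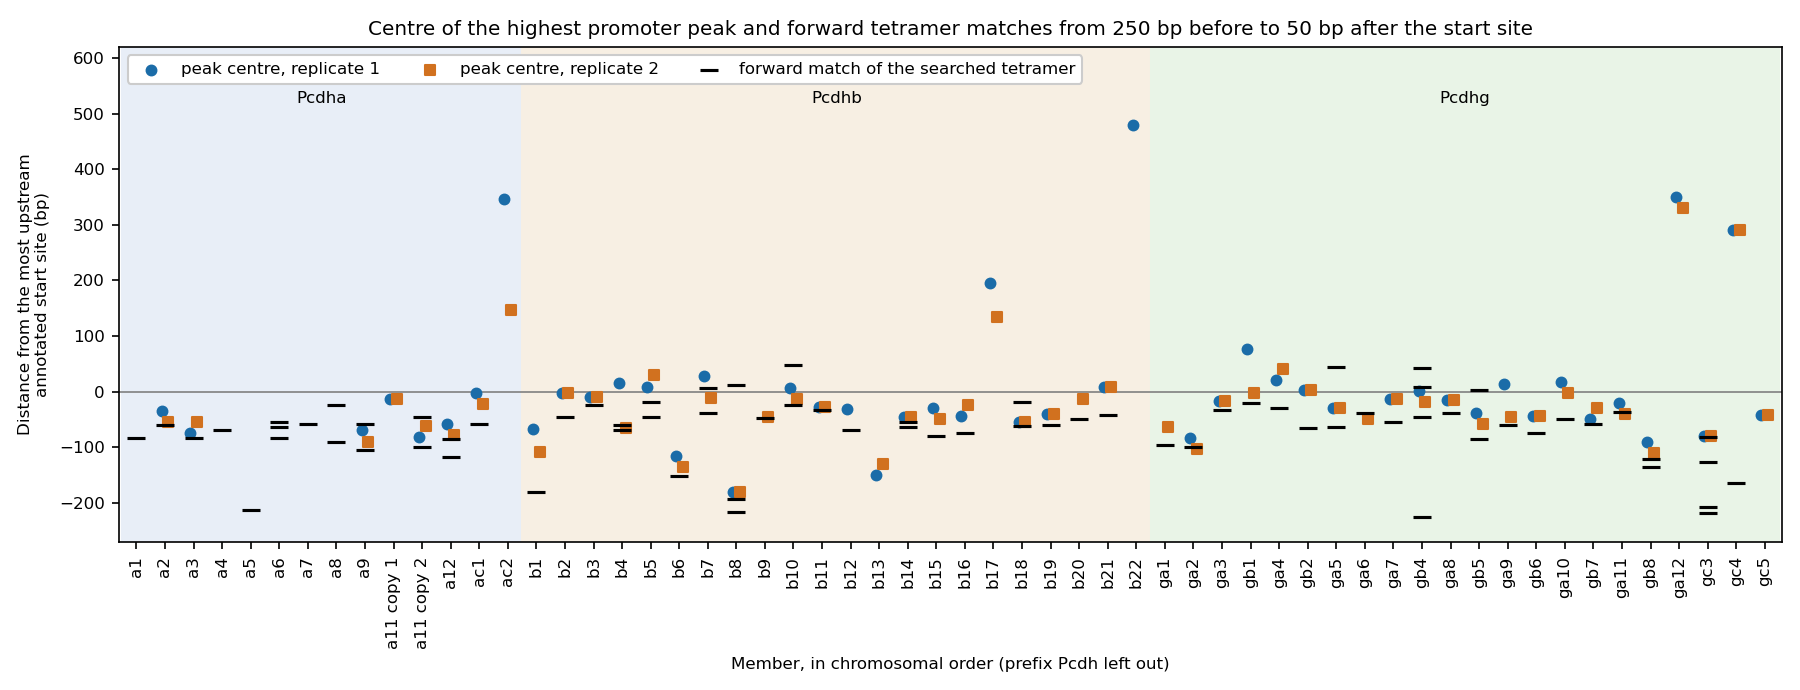
The vertical axis gives the distance in bp from the most upstream annotated start site of each of the 58 members, with negative values upstream. Circles and squares are the centres of the highest promoter peak in replicates 1 and 2, and black dashes are forward matches of CGCT. Most dashes and peak centres lie between 0 and 150 bp upstream, and the 6 Pcdha members without a peak have dashes as well.

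The core CTCF consensus, searched as 1 string on both strands, was found in 4 of 58 member windows (6.90%) and 9.80% of all windows. Inside the shared peak sites at member promoters, it was found in 3 of 50 sites (6.0%), against 8.20% of sites at the promoters of other protein-coding genes. Inside the shared sites of the region away from member promoters it was found in 15 of 89 (16.9%), against 9.81% of all shared sites. CGCT on either strand was found in 48 of the 50 sites (96.0%), against 74.7% of sites at other promoters. The consensus string is strict, and its absence says only that these letters are not in the window. The window and site shares of this paragraph were not matched for base composition. They therefore do not show whether members hold more or fewer matches than promoters of like GC content.

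By their CpG ratio (the observed CpG count over that expected from base composition), the members were mostly intermediate. With all protein-coding promoters divided into 3 classes of about equal size, 8 members fell in the lowest, 39 in the middle and 11 in the highest class. Shared promoter peaks were present at 5, 32 and 9 of them. The corresponding shares of all genes were 24.7%, 80.4% and 97.3%. Members of the middle class were thus open about as often as other genes of that class. The other classes held few members and differed: 5 of 8 were open in the lowest, against 24.7%, and 9 of 11 in the highest, against 97.3%.

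Away from member promoters, the open sites of the region were concentrated at the Pcdhg end. Overlapping peaks were merged into 139 shared sites over the region of 1312 kb, of which 50 lay at member promoters and 89 elsewhere. The 139 sites gave 10.6 per 100 kb, and the 89 elsewhere gave 6.79. Over chromosomes 1 to 19, X and Y there were 6.51 shared sites per 100 kb, promoter sites included. Replicate 1 had 185 peaks in the region and replicate 2 had 177, of which 140 (75.7%) and 142 (80.2%) overlapped the other list.

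**Figure D4:**
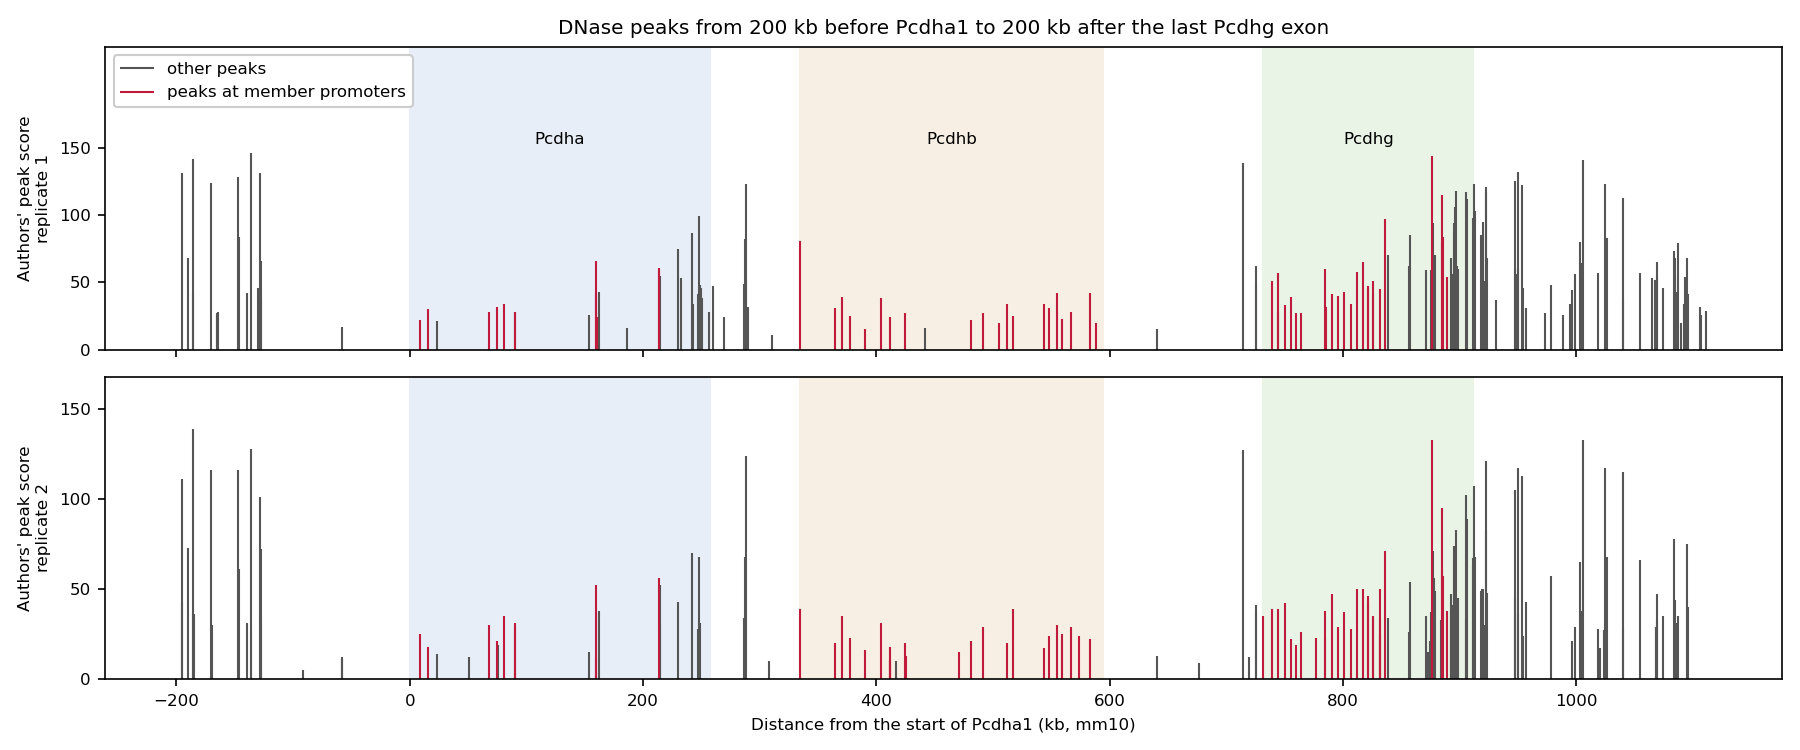
Each vertical line is a peak, at its distance in kb from the start of Pcdha1, with its height giving the authors' score in replicate 1 (top) and replicate 2 (bottom). Red lines are peaks at member promoters, grey lines are other peaks, and the shaded spans are the Pcdha, Pcdhb and Pcdhg clusters. The Pcdhb span holds almost only low red lines, whereas tall grey lines crowd the end of the Pcdhg span and the sequence after it.

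The Pcdhb array held 17 shared sites in 260 kb, and all 17 were at member promoters. The promoter site of Pcdhb1, centred just upstream of its gene, precedes the array. No shared site lay anywhere else between the start of Pcdhb1 and the end of Pcdhb22. The Pcdha array of alternate isoforms was similar, with 2 sites away from member promoters in 160 kb, and the Pcdhg array of alternate isoforms had 5 in 145 kb. Hotspots covered 1.69% of the Pcdhb array in replicate 1 and 1.81% in replicate 2, below the 3.18% and 2.19% over all chromosomes.

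In contrast, the 35.5 kb from Pcdhgc3 to the end of the Pcdhg cluster held 20 shared sites, or 56.3 per 100 kb, with 16 away from member promoters. Hotspots covered 27.6% of it in replicate 1 and 25.6% in replicate 2. Each of the 16 sites was given 1 place, although a promoter of another gene can lie within a member's exon or intron. By that place, 8 were in introns shared by the 22 Pcdhg members and 4 at promoters of other annotated genes. Another 2 were in the variable exon of Pcdhgc3 and 2 in constant exons. The promoter sites of BC037039 lay between the 2 variable exon sites, and those of Gm38182 lay between intron sites. The strongest of the 16 was intronic, at chr18:37835676-37835845, with scores of 117 in replicate 1 and 102 in replicate 2. Others in the same introns were chr18:37826636-37826785, with scores of 118 and 83, and chr18:37836376-37836565, with scores of 112 and 89. The site in the first constant exon, chr18:37824956-37825105, scored 94 and 74.

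The corresponding stretch of the Pcdha cluster was less dense. The 97.6 kb from Pcdhac1 to the end of Pcdha held 9 shared sites, or 9.22 per 100 kb, with 8 away from member promoters. Its strongest site (chr18:37178436-37178605, scores 99 and 68) was at the promoter of Gm10544, inside introns of the Pcdha genes. The next (chr18:37172316-37172465, scores 87 and 70) was at the promoter of Gm38097. The variable exons of Pcdhac1 and Pcdhac2 each held 1 further shared site, with scores of 43 and 38 in Pcdhac1 and 55 and 52 in Pcdhac2.

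**Figure D5:**
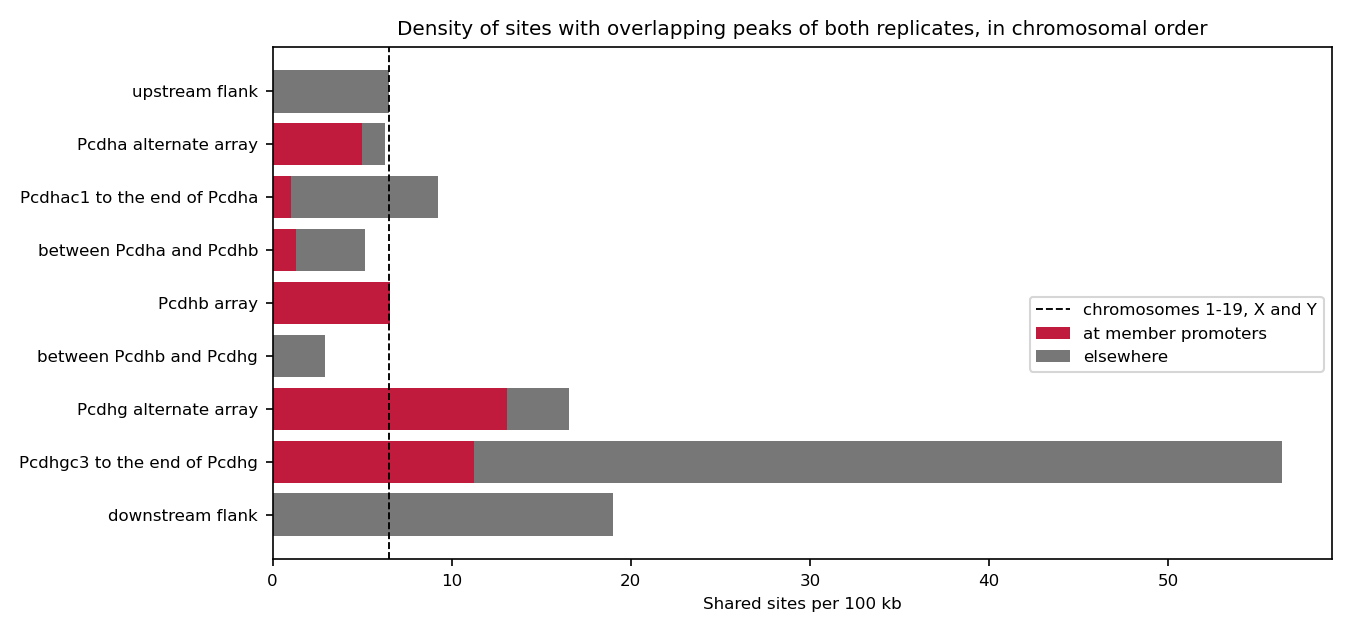
Horizontal bars give the shared sites per 100 kb in 9 consecutive stretches of the region, split into sites at member promoters (red) and elsewhere (grey). The dashed line marks 6.51 per 100 kb over chromosomes 1 to 19, X and Y. The Pcdhb array reaches the line with promoter sites alone, and the stretch from Pcdhgc3 to the end of Pcdhg stands at 56.3.

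Clustered protocadherin promoters are known to be controlled by distant enhancers, one group of which lies past the Pcdha constant exons and another past the Pcdhg constant exons. Of the 10 strongest shared sites away from member promoters, 7 were promoters of other genes and 3 were not at any promoter. One of the 3 lay between the Pcdha and Pcdhb clusters, at chr18:37218256-37218425, with scores of 123 in replicate 1 and 124 in replicate 2 (percentiles 97.1 and 98.1). It was 46597 bp upstream of the start of Pcdhb1 and stood higher in both lists than every member promoter except that of Pcdhgc3. Beside it lay weaker shared sites at chr18:37217256-37217465 (scores 82 and 68) and chr18:37216656-37216845 (49 and 34).

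The other 2 lay past the Pcdhg cluster, in introns of Diaph1, a neighbouring gene for an actin regulator. They were chr18:37880236-37880405, with scores of 132 and 117, and chr18:37852176-37852325, with scores of 121 and 121. The 200 kb after the cluster held 38 shared sites, and the 200 kb before Pcdha1 held 13. Which genes these sites act on was not measured, and the deposited lists carry no contacts between sites.

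The genes around the clusters gave a reference within the same chromatin region. Shared promoter peaks were present at 14 of 18 other protein-coding genes of the region, against 67.4% of all genes, with median percentiles of 97.7 in replicate 1 and 97.0 in replicate 2. The strongest promoter sites were those of Ik and Ndufa2, which share one (scores 142 and 139), Diaph1 (141 and 133), and Zmat2 (146 and 128). Taf7, a general transcription factor gene between Pcdhb and Pcdhg, followed with scores of 139 and 127, then Hars and Hars2 (128 and 116), Tmco6 (131 and 111) and Wdr55 (124 and 116). Slc25a2, a mitochondrial carrier gene, Dnd1, a germ cell gene, and the read-through models Gm37013 and Gm37388 had no promoter peak in either replicate. The read-through model Gm42416 was the weakest of the 14, with scores of 21 and 14. The other 13 had promoter peaks above the middle of both lists, unlike most members.

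Regulators of the clusters had promoter peaks of the usual strength. A list of 23 genes for CTCF, cohesin, DNA methylation and silencing factors had shared promoter peaks at 22, against 67.4% of all genes. Their median percentiles were 98.5 and 98.0, close to the 96.9 and 96.3 of all open promoters. The highest were Stag1 (scores 144 and 134) and Smc3 (142 and 130), both cohesin subunits, and Wiz (137 and 137), a zinc finger protein. Ctcf scored 123 and 128, and Tet1, a DNA demethylation enzyme, had no promoter peak in either replicate.

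Genes listed as partners of clustered protocadherins had shared promoter peaks at 18 of 18, against 67.4% of all genes. Their median percentiles of 98.2 and 98.0 were again close to the 96.9 and 96.3 of all open promoters. The highest were Fyn (147 and 136), a kinase, Wasf1 (143 and 136), an actin regulator, and Adam10 (143 and 136), a protease that cleaves protocadherins. Protocadherin genes outside the clusters had them at 11 of 12, against the same 67.4%, with median percentiles of 97.6 and 95.4. Pcdh10 (143 and 137), Pcdh18 (142 and 130) and Pcdh17 (138 and 132) were the highest, and Pcdh12, known from endothelial cells, had one in replicate 1 alone, scored 56. By their medians, the non-clustered genes of the family thus ranked with other open promoters, far above the medians of 21.4 and 35.9 of the clustered members. Single genes stood lower, among them Pcdh1 (percentiles 85.0 and 85.4), Pcdh20 (83.7 and 84.3) and Pcdh15 (84.4 and 64.1).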

How the data were processed

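DNase-seq was done on 2 biological replicates. Per the deposited descriptions, the filtered alignments of each replicate gave its own peaks and hotspots, not pooled. The authors' peak score, a whole number, has no stated normalization. The deposited hotspot value is the −log10 of a q-value. The aligner, caller, thresholds and depth were not given in the sources used here, so no counting interval is given. Instruments are listed for replicate 1 only, per the labels, so a sequencing batch and the replicate cannot be told apart.

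Regions on chromosomes 1 to 19, X and Y were kept once per coordinate (304233 and 217980 peaks, 277933 and 198482 hotspots). Promoters were 500 bp either side of every GENCODE M21 basic start site. Peaks were shared where they overlapped by 1 bp or more. Percentiles are mid-ranks within a list. Sequence was GRCm38 (mm10 coordinates, 1-based).

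Members and lists were chosen with earlier results of these data known. Named genes are the c-type isoforms, the 3 highest members per cluster, members with a peak in 1 replicate or neither, the 10 strongest sites elsewhere, and each list's top 3 and genes without a shared peak. Others, and the tissue and neuron lists, were chosen after values were seen. Window, overlap, threshold, region type, start sites and replicates were varied. Python 3.11.15, pandas 2.3.3, numpy 2.4.6 and matplotlib 3.10.9 were used, and the scripts were tested on simulated data.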

Additional observations from a re-analysis of the deposited data

How the results depend on the processing

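Of 62 alternative values, 56 were within 1.5 times the reported count. The other 6 came from using only peaks at or above the median score of their list, which left 12 members, 2 in Pcdha, 1 in Pcdhb, 9 in Pcdhg, 6 alternate isoforms and 55 sites away from member promoters. That setting removes weaker peaks by construction. Over all protein-coding genes it left a share of 63.2%, against 67.4% with all peaks. With either replicate left out, members numbered 48 to 50, Pcdha 8 to 8, Pcdhb 20 to 20, Pcdhg 20 to 22, alternate isoforms 23 to 25, c-type isoforms 5 to 5 and sites elsewhere 113 to 128. A window of 1000 bp, or hotspots in place of peaks, added Pcdha4. A window of 250 bp removed Pcdhga12, and an overlap of 75 bp removed Pcdhb4, Pcdhac2 and Pcdhgb1. Start sites of the comprehensive annotation, chosen after seeing the data, changed no member. No paired analysis was possible because the replicates form 1 group. With read depth unknown, members just missing from a list cannot be told from closed ones.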

Other observations

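Several open sites inside the clusters lay at promoters of other annotated transcripts. In the Pcdhg cluster, BC037039 had shared promoter sites with scores of 52 in replicate 1 and 56 in replicate 2 and of 68 and 37, Gm38182 had sites of 47 and 41 and of 48 and 29, and Gm26672 had one of 70 and 34. In the sequence before Pcdhga1, 3222401L13Rik had sites of 49 and 41 and of 62 and 37. Most of these exceeded the members' median scores of 36 and 30.5 in the same list. Over the 46 members with a shared promoter peak, 30 had a higher percentile in replicate 2 than in replicate 1, with a median difference of 3.32 percentile points. The lists differ in length, so the percentiles need not match.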
